A study of Rattus norvegicus with 60 samples.

Results

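Captured bins far from genes were defined as bins of 500 nt with a mean of at least 1 RPKM over the 10 captured 1 h libraries, at least 2 times the mean of the 1 h input libraries, and more than 20 kb from any gene of the RNA table. RPKM is reads scaled by bin length and by library depth. There were 141449 such bins, which is 40.4% of the 350378 captured bins at 1 h and 2.44% of all 5805202 bins. They covered 70.7 Mb. Methylated DNA was captured from CA1 tissue of the hippocampus of Sprague-Dawley rats aged 90 to 120 d, with a methyl-binding domain (MBD) protein of the MethylMiner kit. Tissue was taken 1 h or 24 h after contextual threat recognition training. Each time had captured libraries of 3 naive, 4 place and 3 threat samples, with 3 input libraries made without capture. The labels name no genotype or drug, do not describe what naive, place and threat animals experienced, and leave unsaid whether replicates are different animals. The spread behind the p-values below is that between these samples and may be technical.

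In mammalian DNA most methylation sits on cytosines of CpG dinucleotides, and a methyl-binding domain binds fragments with many methylated CpGs most strongly. DNA between genes is mostly free of CpG islands and largely methylated. It holds many of the interspersed repeats, whose silencing is a textbook role of DNA methylation, as well as enhancers, which lose methylation where they are active. The captured level of a bin is thus a mixture of how methylated its CpGs are and how many it has, and repeats absent from the assembly add reads to the copies that it holds.

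Libraries held 31.4 to 39.9 M recovered reads at 1 h and 42.2 to 59.5 M at 24 h. The median far captured bin had 35 reads in a 1 h library and 26 in a 24 h library. RNA of 9 naive libraries carried the CA1 marker Wfs1 at 114 ± 34.7 FPKM (SD, n = 9) and Fibcd1 at 7.30 ± 4.51 FPKM. Markers of glia were also present, with Mbp of oligodendrocytes at 1325 ± 292 FPKM and Gfap of astrocytes at 301 ± 61.9 FPKM, so the tissue held several cell types. The dentate gyrus marker Prox1 stood at 2.14 ± 1.52 FPKM. A lower level in such bulk tissue can mean fewer cells of a type or less methylation per cell, which cannot be told apart here.

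Bins far from genes were captured less often than other bins. Of all bins more than 20 kb from a gene, 4.37% were captured, against 6.36% of bins with a gene within 20 kb and 9.18% of bins overlapping a gene. Far bins more often held no input read at 1 h, at 16.1% against 4.93% near genes and 2.62% inside them. Among bins with an input read the captured shares were 5.20%, 6.69% and 9.43%, in the same order. The 5 bins just inside the level limit had 1 to 1.00003 RPKM and the 5 just outside 0.999935 to 0.999998 RPKM. For the ratio to input these were 2.00008 to 2.00021 and 1.99989 to 1.99998, and for the distance 20001 to 20003 nt and 19999 to 20000 nt.

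The signal of the far captured bins was modest at 1 h and lower at 24 h. The 1 h levels chose the bins and are given as a description. The median far captured bin had 1.65 RPKM in captured DNA at 1 h and 0.439 RPKM in input, a median ratio of 4.0, and 5% of the bins exceeded 4.91 RPKM, up to 49.6 RPKM. At 24 h the median was 0.797 RPKM in captured DNA and 0.311 RPKM in input, a ratio of 2.61, and the highest bin reached 340 RPKM. The median bin thus kept 0.462 of its captured level, against 0.431 for captured bins near genes and 0.409 for those inside genes. Input had the same order, with 0.727 of its level kept in far captured bins, 0.661 near genes and 0.621 inside genes. Far bins that were not captured moved the other way, from a median of 0.0193 to 0.140 RPKM in captured DNA, with input at 0.179 and 0.275 RPKM. The bins were chosen on the 1 h libraries, and that choice, the separate libraries and the time cannot be told apart in these differences.

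**Figure D1:**
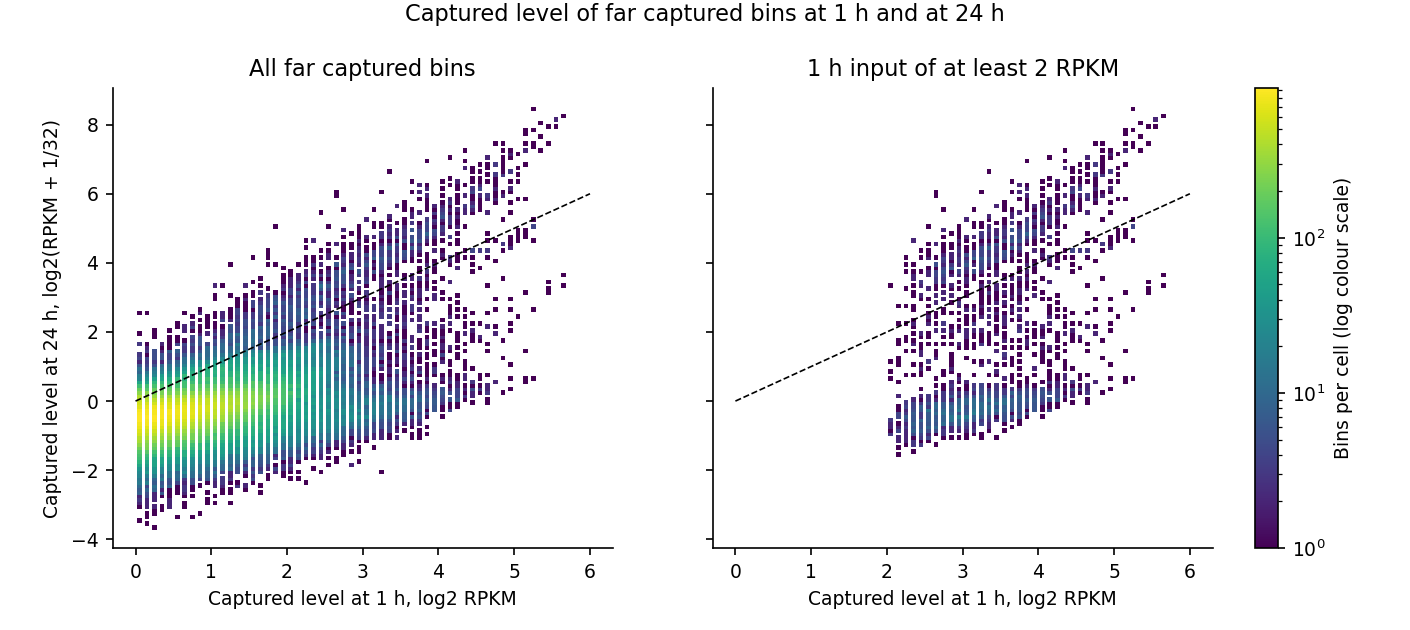
Mean captured level of far captured bins at 1 h (x axis, log2 RPKM) against 24 h (y axis, log2 RPKM with the small offset shown), for all 141449 bins (left) and the 2687 with at least 2 RPKM in the 1 h input (right); colour gives the number of bins on a log scale and the dashed line equal levels. Most bins lie below the line, with medians of 1.65 and 0.797 RPKM, and the bins of high input form one band above the line and one far below it.

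Although levels were lower, most far captured bins were still above input at 24 h. Of the 141449 bins, 98.6% had more captured than input signal at 24 h, 105837 (74.8%) had at least 2 times the input, and 36852 (26.1%) met both limits of the rule at 24 h. The last share was 18.5% for captured bins near genes and 17.5% for those inside genes. The other shares differed little between classes. Near and inside genes, 98.8% and 98.9% were above input and 74.3% and 73.8% had at least 2 times the input. A higher level at 24 h than at 1 h was seen in 6365 far captured bins (4.50%), against 1.69% near genes and 0.853% inside genes. Seen from the 24 h libraries, 43649 far bins met the rule there, 84.4% of them also at 1 h, and far bins made up 51.2% of the 85335 bins captured at 24 h. The share that met the 24 h limits rose with the 1 h level. It was 8.67% for bins of 1 to 1.26 RPKM, 27.9% for those of 1.65 to 2.41 RPKM and 61.3% for those of 4.91 RPKM or more, whose median 24 h level was 1.27 RPKM.

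A small class of far captured bins had high input, and these held every one of the 10 highest captured levels. A mean input of at least 2 RPKM at 1 h, a limit set after the values were seen, was reached by 2687 of the far captured bins (1.90%), by 1.43% of captured bins near genes and by 1.03% inside genes. They fell into a group with high input at both times and a group with high input at 1 h alone. In the 977 bins with at least 2 RPKM of input at both times, the median captured level was 12.1 RPKM at 1 h and 21.5 RPKM at 24 h, and input went from 4.0 to 5.47 RPKM. Of these, 801 (82.0%) were higher at 24 h and 96.9% met the 24 h rule. They were concentrated, with 393 on chromosome 1 and 143 on chromosome 13, at a median of 239 kb from the nearest gene.

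The other 1710 bins of high 1 h input had far less signal at 24 h in both kinds of DNA. Their median captured level went from 8.89 to 0.899 RPKM and their input from 2.59 to 0.337 RPKM, only 4 were higher at 24 h, and they lay on all 21 chromosomes at a median of 83.0 kb from a gene. Libraries were alike in this, with library medians of 7.45 to 10.1 RPKM at 1 h and 0.812 to 1.08 RPKM at 24 h. For the bins high at both times the library medians were 10.9 to 13.2 and 19.3 to 25.2 RPKM. A further 294 bins passed 2 RPKM of input at 24 h alone, with captured medians of 4.86 and 9.73 RPKM. The direction of the input in the 1710 and the 294 bins was fixed by how these classes were defined. The most reads in any bin of a captured library were 1151 to 1274 at 1 h and 15741 to 29026 at 24 h, and the part of this difference in the classes was not tested.

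The highest captured level at 1 h was at chr2:180371001-180371500, 378 kb before the gene ENSRNOG00000043254. Positions are in the rat build rn5, and before and after are in the order of coordinates, whatever the gene's strand. It had 49.6 RPKM in captured DNA and 19.5 in input at 1 h, and 10.1 and 3.13 RPKM at 24 h. At chr13:38640001-38640500, 731 kb before Tsn, which encodes the nucleic-acid-binding protein translin, 1 h levels were nearly the same but 24 h levels were far higher. That bin had 51.0, 50.9 and 51.8 RPKM in the naive libraries at 1 h and 345, 272 and 301 RPKM at 24 h, while input went from 23.7 to 65.3 RPKM. The highest level at 24 h was at chr18:38070501-38071000, 83.9 kb after RGD1563060, with 38.3 RPKM at 1 h and 340 RPKM at 24 h, and input of 17.7 and 72.2 RPKM. Among bins without high input the highest 1 h level was 17.4 RPKM at chr2:221186501-221187000, where input was 1.79 RPKM, and the 24 h level 1.495 RPKM. At that bin place libraries had 16.7, 11.9, 15.0 and 19.02 RPKM at 1 h, threat libraries 27.1, 22.1 and 16.8 RPKM and naive libraries 12.3, 15.8 and 16.8 RPKM. The groups overlapped there, with 2 threat libraries above the others.

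Capture became rarer with distance from genes, while captured bins that lay farther away kept their signal more often. The captured share of bins fell from 6.40% at 20 to 50 kb through 5.68%, 4.83% and 3.65% to 1.47% beyond 500 kb. The median 1 h level of the captured bins changed little over these classes, from 1.65 to 1.72 RPKM. The share that met the 24 h rule was 21.9% at 20 to 50 kb and 39.1% beyond 500 kb, where 9367 of the bins lay. The share of high input was 1.48% at 20 to 50 kb and 2.50% beyond 500 kb. Of the far captured bins with high input, 58.1% met the 24 h rule, against 25.4% of the others. The captured shares by distance include bins without an input read, and the part of input in these trends was not tested. Chromosomes differed as well. Chromosome 12 had the highest captured share of far bins, at 11.7%, and chromosome X the lowest, at 1.74%, followed by chromosome 4 at 2.48%. On X, 66.8% of the captured bins were far from genes and 38.9% of these met the 24 h rule, whereas on chromosome 10 the figures were 27.0% and 15.0%.

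Far captured bins were clustered. They formed 78020 runs of abutting bins, and 74.8% of the bins had another far captured bin next to them. Counted in the same way within their own class, the share was 71.9% for captured bins near genes and 77.2% inside genes. Of the bins 1 step downstream of a far captured bin, 45.0% were captured, against 4.37% of all far bins. The share fell to 18.9% at 2 steps, 12.3% at 10 steps (5 kb), 9.61% at 50 steps and 8.43% at 200 steps (100 kb), and so stayed above the overall level. Whether a fragment that crosses a bin edge was counted in both bins is not given in the sources used here. Equal values in all 10 captured 1 h libraries were seen in 4 of 63429 abutting pairs. That count cannot decide it, because bins that share only part of their fragments would still differ. The part of shared fragments in the shares for abutting bins was not tested. On a coarser scale, 11572 windows of 100 kb lay wholly far from genes. Of these, 2438 held no far captured bin, 1082 held 20 or more and 100 held 50 or more, with a median of 4, a mean of 7.28 and a variance 13.3 times the mean. The fullest 13% of the windows held 50% of the bins.

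**Figure D2:**
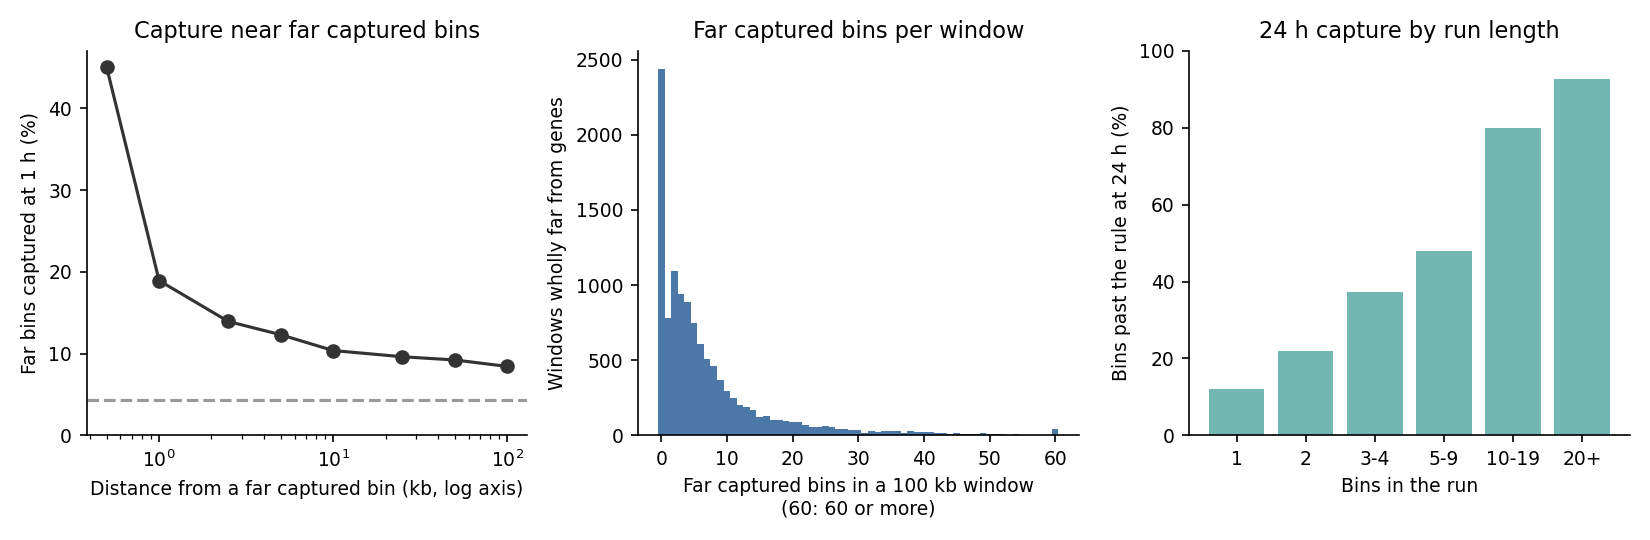
Left, percent of far bins captured (y axis) by distance downstream of a far captured bin (x axis, kb, log scale), with the dashed line at the 4.37% of all far bins; middle, number of 100 kb windows by the far captured bins they held; right, percent of bins that met the capture rule at 24 h by run length. The captured share was 45.0% in the next bin and 8.43% at 100 kb, and the share that met the 24 h rule rose from 12.1% in single bins to 92.6% in runs of 20 or more.

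Bins in longer runs had higher levels at both times. Single bins, 35611 in all, had a median of 1.30 RPKM at 1 h and 0.716 RPKM at 24 h. The 31142 pairs had 1.74 and 0.763 RPKM, and the 1619 runs of 5 to 9 bins had 2.16 and 0.986 RPKM. In the 236 runs of 10 to 19 bins the medians were 2.78 and 1.38 RPKM, and in the 25 runs of 20 or more bins they were 4.24 and 4.02 RPKM. The share that met the 24 h rule went from 12.1% of single bins through 47.9% in runs of 5 to 9 to 92.6% in the longest class, and the share of high input from 0.612% to 21.3%. Runs of 10 or more held 2.56% of the far captured bins, against 1.57% of captured bins near genes and 1.52% inside genes. With gaps of up to 1 kb these shares were 5.28%, 3.44% and 7.75%, and with gaps of up to 5 kb 24.7%, 14.9% and 38.2%. The order of far and genic bins thus depended on the gap allowed. Longer runs moved with higher input, and the part of input in their signal was not tested.

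The longest run was 48 bins, chr2:180871001-180895000, 121 kb after ENSRNOG00000043254. Its mean was 3.26 RPKM at 1 h and 4.76 RPKM at 24 h, with input of 0.806 and 1.09 RPKM, and 47 of its bins met the 24 h rule. At 1 h its naive libraries had 3.08, 3.36 and 3.51 RPKM, its place libraries 2.81, 3.43, 3.30 and 3.17 RPKM and its threat libraries 3.38, 3.75 and 2.78 RPKM. The groups overlapped fully. The next were 43 bins at chr17:59241501-59263000, 227 kb before RGD1564347, with 5.27 and 11.2 RPKM, and 39 bins at chr2:176344501-176364000, 32.1 kb before ENSRNOG00000000889, with 3.53 and 3.39 RPKM. The run on chromosome 17 held 12 bins of high input and that of 39 bins held 0, with 1 h input at 0.366 RPKM. Runs of 34 bins at chr2:566501-583500 and 32 bins at chr1:188913501-188929500, 129 kb before the RNA-binding helicase gene Ythdc2, had 3.97 and 9.10 RPKM at 1 h. At 24 h they had 5.13 and 16.7 RPKM, so 4 of the 5 longest runs were higher at 24 h than at 1 h.

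**Figure D3:**
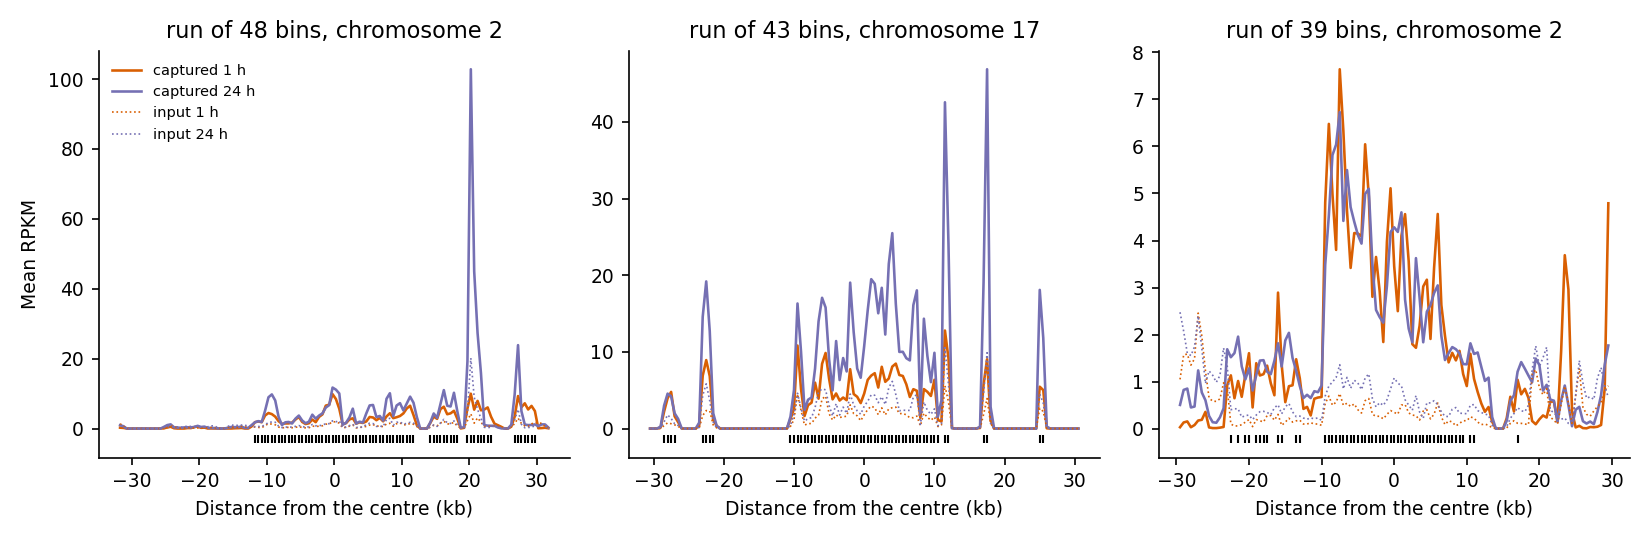
Captured and input signal (y axis, RPKM) across the 3 longest runs at 1 h and 24 h by distance from the run's centre (x axis, kb), with ticks at the far captured bins. The run of 43 bins is higher at 24 h along most of its length, at a mean of 11.2 against 5.27 RPKM, and the run of 39 bins has nearly the same profile at both times, at 3.39 and 3.53 RPKM.

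The fullest 100 kb window held 113 far captured bins, at chr20:51800001-51900000, 106 kb before Popdc3, which encodes a cyclic-AMP-binding membrane protein of muscle. Its bins averaged 2.29 RPKM at 1 h and 0.885 RPKM at 24 h, and 37 met the 24 h rule. Windows next to Camta1, a calmodulin-binding transcription activator, and before Cux2, a homeobox gene of upper cortical layers, each held 83 bins, of which 26 and 10 met the 24 h rule. In these 3 windows 24 h levels were 0.770 to 0.888 RPKM, and at 24 h each threat library of each window was above every naive and place library. The 24 h values in the Cux2 window, for instance, were 0.754, 0.747 and 0.697 RPKM in naive, 0.745, 0.735, 0.671 and 0.701 RPKM in place and 0.939, 0.862 and 0.848 RPKM in threat libraries. The median over all far captured bins behaved alike at 24 h, at 0.853 to 0.937 RPKM in threat and at most 0.811 RPKM in other captured libraries. This order was thus not particular to these windows. The window at chr17:46100001-46200000, 159 kb before Amph, which encodes the endocytic protein amphiphysin, had 101 bins, 98 of which met the 24 h rule, and means of 2.04 and 2.40 RPKM at the 2 times. The window chr1:187800001-187900000 held 91 bins, 60 of high input, with means of 10.6 and 28.1 RPKM and input of 4.01 and 6.75 RPKM.

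The far captured bins had 8278 different nearest genes, and 57.9% of these bins had a nearest gene at 1 FPKM or more in naive tissue, against 53.4% of all far bins. Counted by gene, the shares were 56.5% and 53.9%, with 55.6% over all genes of the RNA table. Far captured bins lay at a median of 91.6 kb from a gene and all far bins at 153 kb, and the part of distance was not tested. By the nearest gene's level, 3.64% of far bins were captured below 0.1 FPKM, 4.89% at 0.1 to 1 FPKM, 4.85% at 1 to 10 FPKM and 4.57% at 10 FPKM or more. The most far captured bins lay nearest to ENSRNOG00000049382 on chromosome 1, with 346 bins, 32.1% of its 1078 far bins, and RNA listed at 0 in all 9 naive libraries. Tsn followed with 321 bins (18.2%) and 13.3 ± 2.33 FPKM, and Tshz2, a zinc-finger transcription factor, with 309 bins (27.2%) and 31.3 ± 9.31 FPKM. Sox9, a transcription factor of astrocytes whose regulatory elements lie across a large gene desert, had 289 bins (13.1%) and 11.9 ± 1.29 FPKM. Zfp64, another zinc-finger gene, had 279 bins, which is 29.6% of the far bins nearest to it. The distance in all of these is to the nearest annotated gene and says nothing of which gene an element serves.

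The share of a library's signal that fell in far captured bins had its highest group mean in threat libraries at both times. At 1 h it was 17.4%, 18.6% and 19.4% in naive, 18.9%, 17.2%, 18.6% and 21.4% in place and 22.4%, 22.3% and 19.4% in threat libraries. The groups overlapped at their edges at 1 h, where place replicate 4 exceeded threat replicate 3. At 24 h it was 10.4%, 9.70% and 9.37% in naive, 10.001%, 9.50%, 8.84% and 9.37% in place and 12.005%, 11.6% and 10.7% in threat libraries. All 3 threat libraries stood above the 7 others at 24 h. The same held at 24 h for captured bins near genes, with 3.41% to 3.69% in threat and at most 3.15% in other captured libraries, and inside genes, with 7.95% to 8.80% in threat and at most 7.46% in the others. Input libraries had 4.71% to 4.94% at 1 h and 3.49% to 3.55% at 24 h. The median level of the bins behaved alike, with means over libraries of 1.58 ± 0.0677, 1.65 ± 0.135 and 1.79 ± 0.107 RPKM (SD, n = 3, 4 and 3) in naive, place and threat at 1 h, and 0.757 ± 0.0383, 0.742 ± 0.0482 and 0.898 ± 0.0427 RPKM at 24 h.

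The share of signal in captured bins inside genes was 17.7% to 23.7% at 1 h, above that of the far bins in 10 of 10 captured libraries. The far-to-genic ratio was 0.942 to 0.984. These shares are sums over 148666 genic and 141449 far captured bins, so the 1 h order does not show less signal per far bin. At 24 h the genic share was 6.45% to 8.80%, below that of the far bins in all 10, with ratios of 1.34 to 1.43. The far bins without high input also had more signal than the genic bins at 24 h, at 6.83% to 9.45%. In input DNA the far-to-genic ratio was 0.938 to 0.952 at 1 h and 1.20 to 1.24 at 24 h, so input moved in the same direction by a smaller amount.

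**Figure D4:**
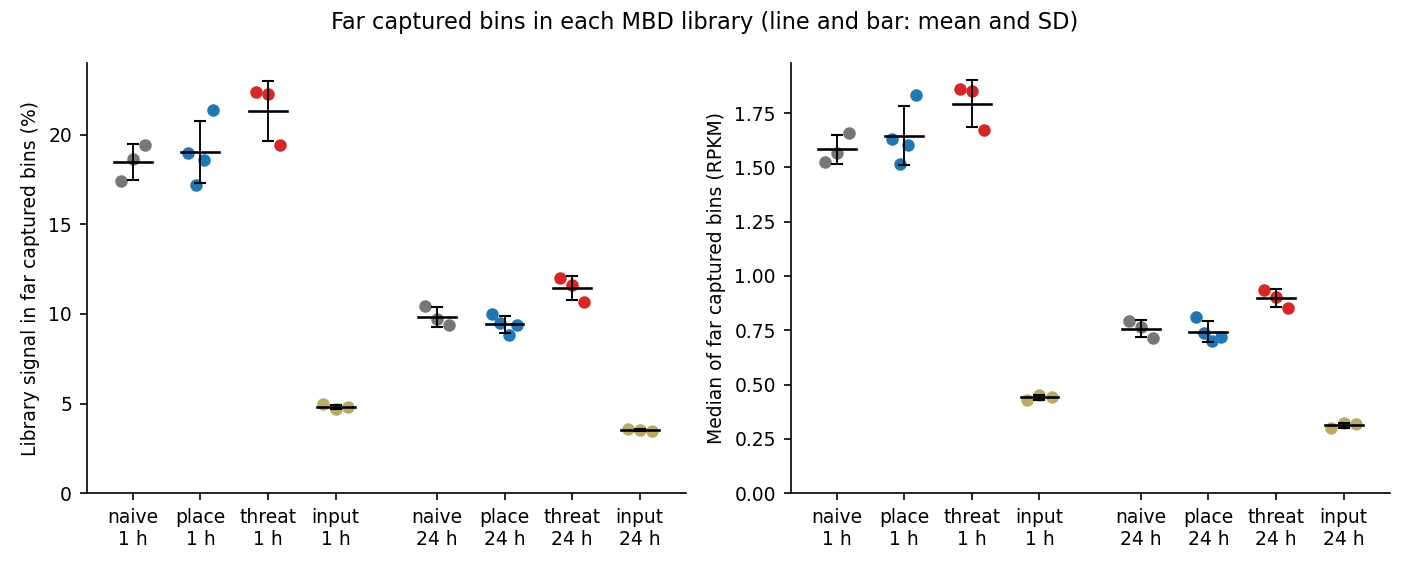
Percent of each library's signal in far captured bins and the median level of these bins (y axes, percent and RPKM) for each naive, place, threat and input library at 1 h and 24 h (x axis, groups), 1 point per library, with lines and bars for the group mean and SD. At 24 h the 3 threat libraries, at 10.7% to 12.005%, lie above the 7 other captured libraries, and input lies at 3.49% to 4.94% across both times.

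At 1 h, few single far captured bins differed between threat and naive libraries, while the median over all bins lay above 0. In limma on log2(RPKM + 0.25), 17 far captured bins were higher and 2 were lower in threat than in naive libraries at a Benjamini-Hochberg adjusted p below 0.05, and percent called over all captured bins was 0.016, or 0.0146 higher and 0.00143 lower. The median log2 difference was 0.17 for the far bins and 0.17 for all captured bins. Unadjusted limma p was below 0.05 in 22050 far bins, which is 15.6%, and in 15.4% of all captured bins. Every threat library was above every naive library in 24727 far bins (17.5%), and in 17.7% of all captured bins. When libraries were scaled by the median ratio of captured bins, 1 far bin was higher and 4 were lower, 3 of the 5 shared with the unscaled result. Without threat replicate 1 there were 2 called bins and without threat replicate 2 there were 7, whereas 3318 were called without threat replicate 3, 75 without naive replicate 3, 89 without place replicate 4, 45 without place replicate 2 and 10 without naive replicate 1.

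The 19 called bins formed 14 runs, 5 of them pairs, and 5 of the bins had high input. The largest rise was at chr2:234404001-234404500, 119 kb before the amylase gene Amy1a. It had 1.12, 0 and 2.36 RPKM in naive, 2.99, 2.39, 2.67 and 3.45 in place and 2.92, 3.61 and 2.15 in threat libraries. Naive replicate 2 held no read, and threat replicate 3 lay below naive replicate 3, so the groups overlapped. The log2 difference was 1.68 ± 0.32 (SE; limma adjusted p = 0.0173), and 0.71 (adjusted p = 0.24) without naive replicate 2; the call was also lost without threat replicate 1 (0.0632) or 2 (0.232).

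Before Sv2b, which encodes a synaptic vesicle glycoprotein, the bin chr1:137439501-137440000 lay 217 kb from the gene. It had 0.762, 1.17 and 1.00 RPKM in naive, 1.54, 1.70, 2.09 and 2.46 in place and 2.57, 2.54 and 2.00 in threat libraries. Every threat library was above every naive one, with place in between or overlapping threat. The difference was 1.10 ± 0.19 (limma adjusted p = 0.00787), with adjusted p = 0.163 without naive replicate 1, 0.0845 without threat replicate 1 and 0.0896 without threat replicate 2. Its left neighbour was called too (1.08 ± 0.19, adjusted p = 0.0101) and held nearly the same value in each library.

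A pair of bins 117 and 118 kb after Cadm1, a synaptic adhesion molecule, rose in threat over naive by 1.02 ± 0.20 and 0.96 ± 0.18 (limma adjusted p = 0.0322 and 0.023). A bin 634 kb before Socs6, a suppressor of cytokine signalling, had 0.966, 0.294 and 0.402 RPKM in naive and 2.11, 3.28 and 1.34 RPKM in threat libraries, with a change of 1.65 ± 0.30 (limma adjusted p = 0.0113). Place libraries at this bin spanned both groups, from 0.313 to 2.49 RPKM. Bins 22.3 kb before Fbxo34, 129 kb before the Golgi mannosidase gene Man2a1 and 22.9 kb before the tenascin gene Tnxb rose by 0.90, 0.96 and 0.87. Of the 17 rises, the Man2a1 bin alone was still called with median-ratio scaling.

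Of the 2 falls, one was called under every alternative tried. The bin chr12:50672501-50673000, 27.8 kb after Wscd2-ps1, had 3.05, 4.65 and 2.76 RPKM in naive, 1.49, 2.07, 2.92 and 3.13 in place and 1.16, 1.20 and 1.38 in threat libraries. All threat libraries were below all others. The difference was -1.29 ± 0.20 (limma adjusted p = 0.00151), and it was called in 25 of 25 alternatives, with log2 values of -1.68 to -0.98 and adjusted p up to 0.047. At 24 h the bin stood at 0.224 to 1.01 RPKM in the 10 captured libraries and was below the 24 h limits. At chr12:48045501-48046000, 28.9 kb after Ccdc60, naive libraries had 8.84, 9.20 and 8.19 RPKM and threat libraries 3.12, 4.07 and 4.30 RPKM, on an input of 3.13 RPKM. That difference was -1.15 ± 0.19 (limma adjusted p = 0.00337), lost without threat replicate 1 (0.0627) and for clusters of bins (0.186).

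Place against naive at 1 h gave 2 called far bins, both higher, with a percent called over all captured bins of 0.00285, or 0.00171 higher and 0.00114 lower. They were the abutting Amy1a bins, at 1.69 ± 0.30 (limma adjusted p = 0.0137) and 1.60 ± 0.28 (0.0127), and both fell to 0.71 (adjusted p = 1) without naive replicate 2. The first was also lost without place replicate 4 (0.0623). The median difference was 0.04 in far bins and in all captured bins. Unadjusted limma p was below 0.05 in 4742 far bins (3.35%) and in 3.34% of all captured bins. Counts of calls ran from 1 without naive replicate 2 to 10 without threat replicate 3, with 9 and 8 without naive replicates 1 and 3, 6 without place replicate 3 and 4 without place replicate 1. Threat and place were compared with the same naive libraries, so these contrasts are not independent of each other.

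Threat against place at 1 h gave 18 higher far bins and no lower one, with a percent called of 0.0174, or 0.0166 higher and 0.000856 lower. The median difference was 0.13 in far and in all captured bins. Under median-ratio scaling the split was 1 higher against 2 lower. The largest rise was at chr13:63212001-63212500, 679 kb after Kcnt2, which encodes a sodium-activated potassium channel. It had 0.498, 0.414, 0.681 and 1.03 RPKM in place, 1.86, 1.48 and 2.00 in threat and 1.27, 1.37 and 1.10 in naive libraries. Place was lowest, threat highest, and no 2 groups overlapped. The difference was 1.20 ± 0.21 (limma adjusted p = 0.00679), or 0.0688 without threat replicate 1 and 0.0588 with median-ratio scaling.

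The bin chr2:64764501-64765000, 59.7 kb before Arl15, an ARF-like GTPase, was called against both other groups. It had 8.49, 10.7 and 19.3 RPKM in naive, 11.9, 14.5, 9.68 and 13.2 in place and 29.4, 25.7 and 20.6 in threat libraries, on an input of 2.48 RPKM. All threat libraries were above all others, by 1.02 ± 0.17 over place (limma adjusted p = 0.00496), or 0.0621 without threat replicate 1. This was the single rise over place that was still called with median-ratio scaling. A pair of bins 35.0 and 35.5 kb before Rgs7bp, which anchors a regulator of G-protein signalling, rose by 0.96 and 1.01, and a pair 23.8 and 24.3 kb before Slc16a1, a monocarboxylate transporter, by 0.91 and 1.05. In the Slc16a1 bin farther from the gene, place replicate 4 stood apart at 1.70 RPKM, where the other place libraries had 4.21 to 4.55 RPKM.

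In 6 of the 18 bins the libraries had a shared order, picked out after the values were seen. The 6 lay 54.8 to 60.8 kb after the histone demethylase gene Kdm4c, 199 kb before the cadherin gene Cdh8 and 33.5 kb before ENSRNOG00000047581. At 1 h every place library was below every naive library in all 6, and threat replicate 3 was the lowest of the threat libraries. The Kdm4c bin chr5:95171001-95171500 had 20.03, 21.1 and 21.7 RPKM in naive, 8.28, 11.5, 14.6 and 12.2 in place and 33.3, 27.0 and 13.4 in threat libraries. Its 24 h values were 2.51, 2.99 and 1.02, then 2.96, 3.66, 2.80 and 1.59, then 1.46, 3.70 and 6.74 RPKM. At 24 h threat replicate 3 was the highest library in all 6 bins and naive replicate 3 and threat replicate 1 were the lowest, so the groups overlapped there. Calls in this contrast ranged from 5 without threat replicate 1 to 162 without place replicate 4, with 143 without threat replicate 3, 76 without place replicate 3, 53 without naive replicate 1 and 46 without place replicate 1.

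**Figure D5:**
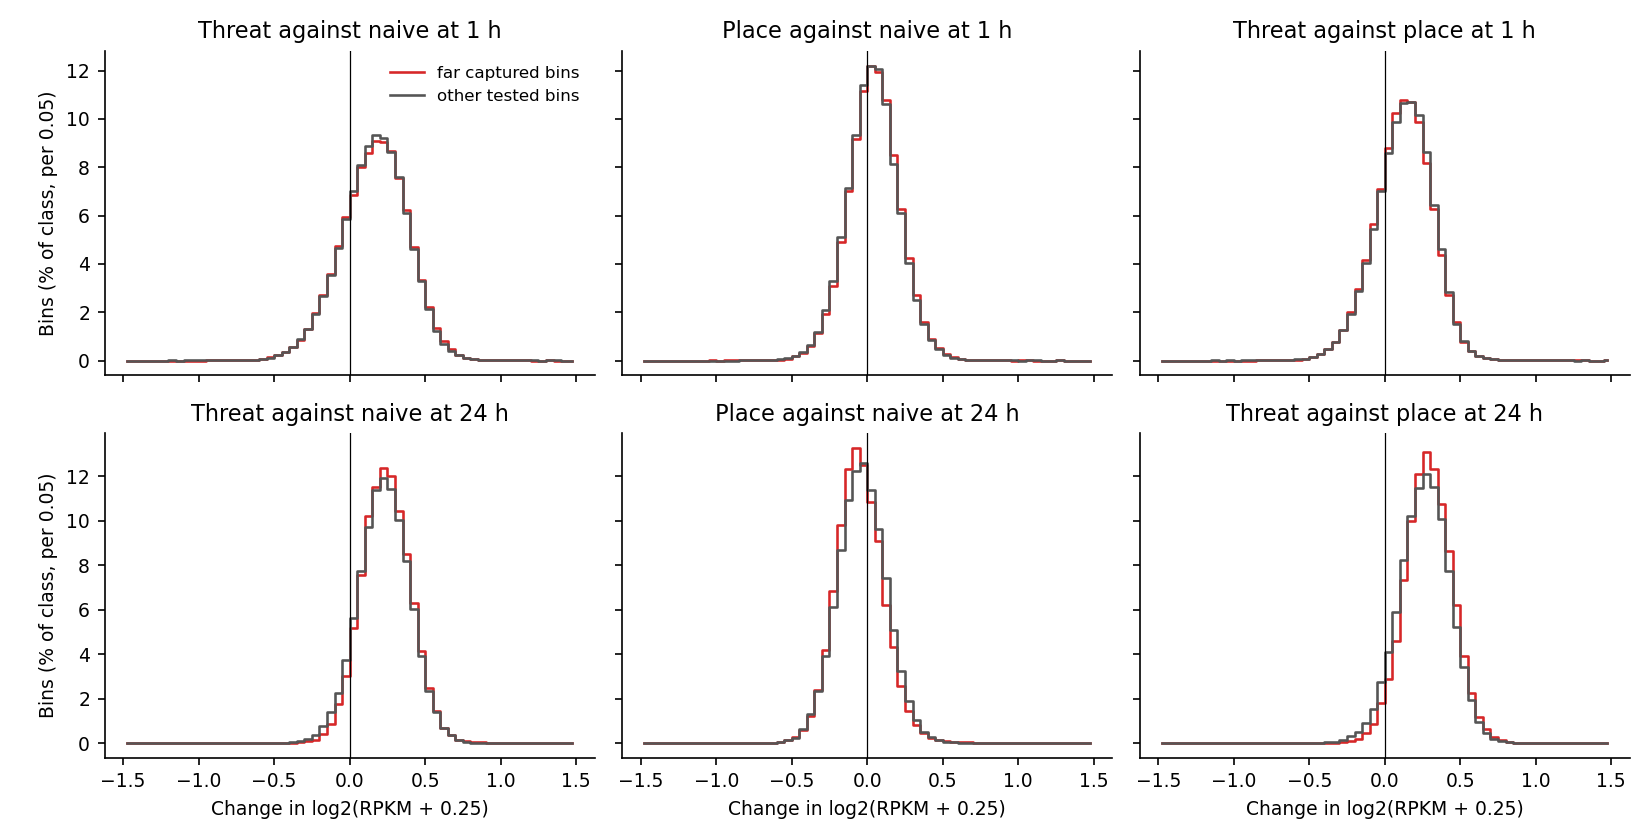
Distribution of the log2 difference between groups (x axis) as percent of bins (y axis) for far captured bins and other tested bins in each of the 6 group contrasts at 1 h and 24 h. Far and other bins overlap in every panel, with medians of 0.17 and 0.24 for threat against naive at 1 h and 24 h and 0.29 for threat against place at 24 h.

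At 24 h the 36852 far captured bins that also met the rule there were tested. Those that did not meet it are not in these counts, so they are not counts over all far captured bins. Threat against naive gave 4 higher bins and no lower one, with a percent called of 0.0105 over the 85335 bins tested. Unadjusted limma p was below 0.05 in 8958 far bins (24.3%) and in 23.1% of all tested bins. The median difference was 0.24 in far bins and 0.23 in all tested bins. Every threat library was above every naive one in 28420 of the 141449 far captured bins (20.1%) and in 19.8% of all bins captured at 1 h. No far bin was called with median-ratio scaling or in edgeR with TMM, none without naive replicate 2 or naive replicate 3, and 287 were called without naive replicate 1, 180 without threat replicate 3, 10 without threat replicate 1 and 1 without threat replicate 2.

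The 4 bins were in 3 places. At chr1:154956001-154956500, 167 kb before the vomeronasal receptor gene Vmn2r65, naive libraries had 3.17, 0.413 and 0.678 RPKM, place 2.99, 2.69, 2.91 and 1.93 RPKM and threat 5.87, 3.003 and 4.89 RPKM. Naive replicates 2 and 3 were far below every other library, while naive replicate 1 exceeded every place library and lay within the threat range. The difference was 1.87 ± 0.29 (limma adjusted p = 0.00577), and 0.131 and 0.118 without naive replicates 2 and 3. At 1 h this bin had 12.9 to 16.2 RPKM over the captured libraries, with naive replicates 2 and 3 at 13.4 and 14.8 RPKM. The abutting bin was called at 1.28 ± 0.24 (adjusted p = 0.0378), and lost by leaving out any of 6 libraries: naive 2 or 3, place 1 or 3, or threat 1 or 2.

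The bin chr9:20420001-20420500, 217 kb after Ptchd4, a gene of the patched-domain family, was called for threat and for place against naive. It had 1.01, 0.445 and 0.678 RPKM in naive, 1.90, 1.45, 1.37 and 1.4 in place and 1.85, 2.01 and 1.45 in threat libraries. All 7 place and threat libraries were above all 3 naive libraries. The difference was 1.10 ± 0.18 for threat (limma adjusted p = 0.00837) and 0.92 ± 0.17 for place (0.047). The first was lost without naive replicate 2 (0.133) or 3 (0.0901) or threat replicate 2 (0.124). The second was the single far bin called for place against naive at 24 h, where percent called was 0.0082. The median difference was -0.05 in far bins and -0.04 in all. Unadjusted limma p was below 0.05 in 1606 far bins (4.36%) and in 4.28% of all tested bins. The call for place was lost without naive replicate 2 or 3 or any place library. In this contrast 61 far bins were called without naive replicate 1, and 2 without each of threat replicates 1, 2 and 3.

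Threat against place at 24 h differed most by count, with 3286 far bins called, all higher in threat, which is 8.92% of those tested. The percent called over all tested bins was 7.7, or 7.69 higher and 0.00469 lower, and the median difference was 0.29 in far bins and 0.28 in all bins. Every threat library was above every place library in 26191 far captured bins (18.5%), and in 17.4% of all bins captured at 1 h. The called bins lay in 2677 runs, 2151 of them single bins and none longer than 6, on all 21 chromosomes, and had a median 24 h level of 1.43 RPKM against 1.26 RPKM for the far bins tested. With median-ratio scaling 1 far bin was called, lower in threat, and it was not among the 3286. The count was 0 without place replicate 3 or threat replicate 2, 6 without threat replicate 1, 88 without place replicate 4, 832 without place replicate 2, 5018 without threat replicate 3 and 7364 without place replicate 1.

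The largest differences between threat and place at 24 h were under 1 on the log2 scale. At chr1:27607001-27607500, 307 kb after the muscle calcium-release gene Trdn, place libraries had 1.71, 1.48, 1.51 and 1.48 RPKM, threat 4.52, 3.62 and 1.88 RPKM and naive 2.59, 2.03 and 1.39 RPKM. Threat was above place throughout, by a wide gap in 2 of its 3 libraries, and naive overlapped both. The difference was 0.92 ± 0.19 (limma adjusted p = 0.0242), and 0.63 (adjusted p = 0.721) with median-ratio scaling. The call was lost without place replicate 3 (0.0644) or threat replicate 1 (0.147) or 2 (0.0949). At chr8:82553001-82553500, 26.6 kb after Bmp5, which encodes a bone morphogenetic protein, place libraries had 0.811, 0.915, 0.868 and 0.909 RPKM and threat libraries 1.79, 1.75 and 1.88 RPKM. These groups were each tight and well apart, though the call was lost in 8 of 26 alternatives. A bin 266 kb before Zcwpw2, a zinc-finger protein that reads histone methylation, rose by 0.89 ± 0.17 (limma adjusted p = 0.0201).

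A change in a group difference between the times was called in a single far bin. The change of threat against naive was tested in 1 limma fit of 20 captured libraries on the 73982 bins captured at both times. It was called in 1 far bin, with a percent called of 0.00135. Unadjusted p was below 0.05 in 1471 far bins (3.99%) and in 3.91% of all tested bins. The called bin was chr14:478501-479000, 33.2 kb before RGD1561977. At 1 h it had 1.42, 2.20 and 1.96 RPKM in naive, 2.13, 1.61, 2.04 and 2.06 in place and 0.754, 1.57 and 1.05 in threat libraries. At 24 h naive had 1.01, 1.24 and 0.829 RPKM, place 1.79, 1.39, 1.4 and 1.17 and threat 1.93, 2.39 and 2.07 RPKM. Threat was lowest at 1 h, with 1 library inside the naive range, and above every other library at 24 h.

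The change in this bin was 1.55 ± 0.27 (limma adjusted p = 0.0171), and threat against naive at 24 h was 0.91 ± 0.17 (adjusted p = 0.0376). The change was lost without naive 1 h replicate 2 (0.149) or 3 (0.0545), threat 1 h replicate 1 (0.139), naive 24 h replicate 3 (0.216), or threat 24 h replicate 2 (0.104) or 3 (0.0544). The number of bins called was 25 without naive 24 h replicate 1, 3 without naive 1 h replicate 1 or threat 1 h replicate 3, and 2 without naive 24 h replicate 2 or threat 1 h replicate 2. Changes of place against naive and of threat against place were called in 0 far bins by limma, with percent called of 0 for both, and with median-ratio scaling, quantile normalization and the replicate block as well. Unadjusted limma p was below 0.05 in 1486 and 2575 far bins, which is 4.03% and 6.99%, against 3.87% and 6.62% of all tested bins. Calls came to 21 for place against naive without naive 24 h replicate 1. For threat against place they came to 8 without threat 24 h replicate 3 and 2 without threat 1 h replicate 2.

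Between naive libraries of the times, 24327 of the 36852 far bins tested were lower at 24 h and 1966 were higher in limma, and percent called was 76, or 3.03 higher and 73 lower. The rule used the 1 h naive libraries, so these counts describe and test nothing. The median log2 difference was -0.65 in far bins and -0.79 in all bins tested. Under median-ratio scaling the split was 13170 higher against 7898 lower, so the split by direction depends on scaling. The largest fall was at chr18:47819001-47819500, 49.3 kb before the centrosomal gene Cep120, from 22.8, 30.8 and 28.7 RPKM to 1.502, 1.02 and 0.904 RPKM, while input went from 5.48 to 0.255 RPKM. The largest rise was at chr2:180903001-180903500, 153 kb after ENSRNOG00000043254, from 9.61, 10.1 and 10.2 RPKM to 120, 94.7 and 95.9 RPKM, with input from 4.22 to 20.2 RPKM. In both places input DNA moved in the same direction as captured DNA.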

How the data were processed

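MBD capture and input libraries of rat CA1 were analysed from the authors' deposited table of signal per 500 nt bin, given as RPKM. The gene table deposited by the authors gives FPKM and positions for 22865 genes and was used for distances and nearest genes. Builds rn5 and mm10 and the tools DESeq2, edgeR, Bowtie and TopHat 1.4.0 appear in the submitters' processing notes, with no roles given. The tables are titled with a mouse build, but the last position on chromosome 1, 290094216, is that of rat rn5. RPKM values were whole multiples of 1 read within 0.1 reads, which gave the reads of each bin and their sum per library, and 21 short bins were left out. Each ± on an FPKM or RPKM value is an SD over libraries. Each ± on a log2 difference is a limma SE from the spread between libraries. The bins, lists and regions described were chosen with earlier results of these data known.

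Group contrasts used limma 3.58.1 in R 4.3.3 on log2(RPKM + 0.25), with a trend, in 1 fit per time of the 10 captured libraries over all bins captured at that time, Benjamini-Hochberg adjusted over all of them at a threshold of 0.05. A fold change on this scale understates the change of low bins. Contrasts of the times used 20 captured libraries. edgeR 4.0.16 on the recovered reads, with a quasi-likelihood test, was an alternative. The scripts were checked on simulated data that held no shift in captured level between whole libraries, so the check does not bear on the effect of scaling. Other alternatives were the pseudocount, filters, median-ratio and quantile scaling, a replicate block, array weights, clusters of bins and each library left out. Named regions were the 10 highest captured levels at 1 h, the 5 longest runs, the 5 fullest 100 kb windows, the 5 largest changes per direction among called bins (or the 5 lowest p), the bins at each limit and their nearest genes. Other called bins, the highest bins at 24 h and those without high input were named after their values were seen. Tables were read with Python 3.11.15, numpy 2.4.6 and pandas 2.3.3, and plots drawn with matplotlib 3.10.9.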

Additional observations from a re-analysis of the deposited data

Results flagged for a closer look

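In 11 of 160 sets of 4 place libraries, 1 library stood apart from the other 3 by Dixon's criterion, which is 6.88%. The criterion has a nominal rate of about 5%. Most sets came from regions named for their values in these libraries, and some of these abut, so the nominal rate does not apply to them. At 1 h, place replicate 4 stood apart at chr2:178450001-178450500 (49.6 RPKM), at chr14:96337501-96338000 (20.4 RPKM) and at chr2:226504501-226505000 before Slc16a1 (1.70 RPKM). Place replicate 3 stood apart at 1 h at chr12:48045501-48046000 after Ccdc60 (3.74 RPKM) and at chr14:15911001-15911500 (3.65 RPKM). Place replicate 2 did so at 1 h at chr14:478501-479000 (1.61 RPKM), chr8:82553001-82553500 after Bmp5 (0.690 RPKM) and chr2:184577501-184578000 (2.12 RPKM). At 24 h, place replicate 1 stood apart at chr9:20420001-20420500 after Ptchd4 (1.90 RPKM) and chr1:27607001-27607500 after Trdn (1.71 RPKM), and place replicate 4 in the run chr2:180871001-180895000 (4.28 RPKM).

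The difference between threat and naive at chr14:478501-479000 changed from 1 h to 24 h by 1.55 on the log2 scale, in a limma test of the change itself.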

How the results depend on the processing

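Counts of called far bins are given in the order threat against naive, then place against naive, then threat against place, where they moved by over 1.5 times. At 1 h, no filter gave 72, 23 and 108, quantile normalization 4, 1 and 2, array weights 7670, 20 and 2018, and clusters of bins 5, 0 and 0. Threat against naive and threat against place came to 5 and 3 with median-ratio scaling. Threat against naive and place against naive came to 5 and 6 in edgeR with TMM. Place against naive and threat against place came to 9 and 53 with only the 2 groups compared and to 0 and 47 in edgeR with library totals. Threat against place alone came to 46 with a pseudocount of 1, 32 with a filter of 2 RPKM, 11 beyond 50 kb and 10 without bins of high input.

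At 24 h, no filter gave 22, 4 and 42, median-ratio scaling and quantile normalization each 0, 5 and 1, a filter of 2 RPKM 0, 0 and 667, and bins tested by 1 h levels 49, 3 and 1076, or 2, 16 and 1 with median-ratio scaling as well. Threat against naive and place against naive came to 27 and 0 with a pseudocount of 1, 0 and 4 with only 2 groups, and 2 and 2 for clusters. Threat against naive and threat against place came to 299 and 8944 with array weights and 0 and 1 in edgeR with TMM. Place against naive and threat against place came to 0 and 5280 with library totals. Between naive libraries of the times, quantile normalization gave 16443 and bins tested by 1 h levels 118769, and the change of threat against naive came to 0 and 3. Limits of 100 kb and 2 RPKM left 66498 and 50922 far captured bins, gaps of 1 and 5 kb put 80.5% and 90.2% in runs of 2 or more, and 74.8% had 2 times the input at 24 h.

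With 1 library left out, the counts ran from 2 to 3318, 1 to 10 and 5 to 162 at 1 h, from 0 to 287, 0 to 61 and 0 to 7364 at 24 h, and from 24188 to 26574 between naive libraries of the times. Changes between the times ran from 0 to 25, 0 to 21 and 0 to 8. The share of far captured bins that met the 24 h rule ran from 24.1% to 27.6%. The causes were not tested.

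Same-numbered libraries did not deviate together, with correlations of -0.14 to 0.038 at 1 h and -0.056 to 0.051 at 24 h, so the numbers were not taken as pairs. A replicate block gave 42, 8 and 108 at 1 h, 1492, 5 and 6342 at 24 h and 2 for the change of threat against naive. The block with median-ratio scaling, added after seeing the data like the library totals, the fits without high input and the pair of 1 h levels and scaling, gave 5 for threat against naive at 1 h and 2, 7 and 0 at 24 h. For 60 named results, 1093 alternatives kept the call, 413 did not reach it and 0 reversed a direction. The 60 include the largest changes between naive libraries of the times, whose calls test nothing. The largest rise among those, for instance, was called in 25 of 25 alternatives. The tally is thus not one of group differences alone. The median of 26 reads per bin and library at 24 h limits what single bins can show.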

Other observations

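A few far captured bins were present in some libraries and nearly absent in others of the same group. Over the 10 captured 1 h libraries, 39 of the 141449 far bins (0.0276%) had a range of at least 3 on the log2(RPKM + 0.25) scale, a limit set after the values were seen, where the median bin had a range of 0.76. They lay at 12 places, and 28 captured bins near genes (0.0465%) and 15 inside genes (0.0101%) did the same. Of the 39, 22 lay at chr2:280023001-280047500, whose mean at 1 h was 8.47, 9.21 and 16.7 RPKM in naive, 14.1, 1.33, 12.8 and 9.97 in place and 17.6, 18.7 and 15.4 in threat libraries. Place replicate 2 was low there, while input libraries had 1.63 to 2.87 RPKM. At 24 h the mean was 0.978, 0.786 and 0.163 RPKM in naive, 1.46, 0.168, 0.920 and 0.770 in place and 1.23, 0.205 and 0.872 in threat libraries. Naive replicate 3, place replicate 2 and threat replicate 2 were low at that time, where input libraries had 0.0833 to 0.172 RPKM.

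At chr5:81797001-81798500 the 1 h values were 0.169, 6.27 and 7.38 RPKM in naive, 0.256, 0.0766, 5.33 and 0.0746 in place and 6.66, 0.0617 and 6.92 in threat libraries. At 24 h they were 0.146, 2.13 and 0.188, then 0.103, 1.94, 0.243 and 3.91, then 0.0643, 0 and 3.58 RPKM. In each group some libraries held the signal and some did not, at both times. Near Amy1a, at chr2:234404001-234405000, naive replicate 2 was the low library, at 0.0734 RPKM, and the bins of that place were among those called at 1 h.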
